A study of Rattus norvegicus with 12 samples.

Results

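The cytosolic ribosomal protein genes were represented by 55 probe sets of 48 genes, among 31042 probe sets without controls on a rat Affymetrix array. They were the probe sets whose only gene symbol in the platform annotation names a protein of the large or small cytosolic subunit, without the Rps6k kinases and pseudogenes, and with Rpl3l included. Probe sets with a mean over all arrays at or above the 40th percentile entered the tests, which left 48 probe sets of 43 genes among 18625. The 7 probe sets below that level had means between 2.88 and 3.89 log2 units and belonged to Rpl30, Rps13, Rpl28, Rpl26l1 and Rpl39l1 and, as second probe sets, to Rps24 and Rpl14. Another 36 probe sets that name several symbols, one of them a ribosomal protein, were left out.

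Expression was measured in the left atrial appendage and the left ventricular free wall of male Sprague Dawley rats, 28 days after an aorto-caval shunt or a sham operation. An aorto-caval shunt lets arterial blood pass straight from the aorta into the vena cava and so overloads the heart with volume. The 4 groups were left atrium after shunt, left atrium after sham, left ventricle after shunt and left ventricle after sham, each with 3 arrays, and each array held RNA from a pool of 2 tissues. No gene was altered in any group, and the labels give no age of the rats. Whether atrial and ventricular pools came from the same rats is not stated in the labels. Pooling averages the animals, so the spread between arrays is a spread between pools.

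Cytosolic ribosomes consist of ribosomal RNA and about one copy of each ribosomal protein, and their proteins are made in step with one another. Rpl3 is a protein of the large subunit that reaches towards the centre where peptide bonds form. Rpl3l is its close relative made in striated muscle, where it can take the place of Rpl3 in the ribosome.

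The deposited values were RMA values on the log2 scale, so a difference of 1 is a factor of 2. Values of different probe sets cannot be set against each other as levels, since probes bind with different strength. Arrays of one group correlated at 0.990 to 0.997 over all probe sets. The labelled chambers were borne out by their markers: all 6 tested atrial marker genes were higher in atrium, and all 6 tested ventricular marker genes were lower, after shunt and after sham alike. Signal in bulk tissue cannot tell fewer cells of a type from less RNA per cell.

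The promoters of Rpl3, Rpl3l and Rps23, a decoding-centre protein of the small subunit, are shown because the Rpl3 pair differed most between chambers and Rps23 had the next largest atrial excess after sham among the genes' main probe sets. Each runs from 250 bases before to 50 bases after the RefSeq gene start in build GRCr8, 5′ to 3′ on the gene's strand. Capitals mark a tract of a C followed by at least 4 pyrimidines within 20 bases of the start, and the letters AAGATGG. Rpl3 lies at chr7:113507941-113508240 (minus strand), Rpl3l at chr10:14258196-14258495 (plus strand) and Rps23 at chr2:23814267-23814566 (plus strand).
Rpl3: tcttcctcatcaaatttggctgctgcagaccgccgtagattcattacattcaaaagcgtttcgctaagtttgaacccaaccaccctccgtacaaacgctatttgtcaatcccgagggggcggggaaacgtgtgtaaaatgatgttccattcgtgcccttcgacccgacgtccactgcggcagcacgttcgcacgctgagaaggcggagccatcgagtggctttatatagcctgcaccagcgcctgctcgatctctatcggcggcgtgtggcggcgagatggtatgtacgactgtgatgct
Rpl3l: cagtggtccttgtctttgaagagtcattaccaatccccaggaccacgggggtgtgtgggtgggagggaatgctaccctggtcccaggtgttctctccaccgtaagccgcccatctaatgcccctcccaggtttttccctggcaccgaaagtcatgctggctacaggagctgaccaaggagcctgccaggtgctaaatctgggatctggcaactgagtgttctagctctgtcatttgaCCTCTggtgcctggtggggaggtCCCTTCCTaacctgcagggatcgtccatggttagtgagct
Rps23: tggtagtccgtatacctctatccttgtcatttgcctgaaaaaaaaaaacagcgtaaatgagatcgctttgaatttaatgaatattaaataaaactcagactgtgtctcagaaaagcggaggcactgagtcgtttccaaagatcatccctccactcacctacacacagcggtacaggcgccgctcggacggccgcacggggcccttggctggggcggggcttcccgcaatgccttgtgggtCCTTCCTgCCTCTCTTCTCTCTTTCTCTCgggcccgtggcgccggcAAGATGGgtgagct

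Promoters could be matched for 41 of the 48 genes, against 27457 promoters in all. Pyrimidine tracts by this search were found in 32 of the 41 (78.0%), against 44.7% of all promoters. In mammals, messenger RNAs that begin with such a tract are translated according to growth signals. The search took a tract anywhere within 20 bases of the start, so it does not show that a messenger RNA begins with one. The ETS letters CCGGAAG were in 10 (24.4%, against 9.14%) and the YY1 letters AAGATGG in 8 (19.5%, against 7.23%). The MEF2 motif was in 0 (0.273% of all), the MCAT letters CATTCCT in 3 (7.32%, against 5.09%) and the E-box CAGCTG in 2 (4.88%, against 15.1%). The ETS, YY1, MEF2, MCAT and E-box letters were searched on both strands and the pyrimidine tract on the sense strand only. Each was counted separately, so that overlapping matches count for each. The counts describe letters in a window and say nothing of whether a factor binds.

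Rpl3l lay near the middle of the array's probe sets in atrium, not far above the filter level of 4.01, and near the top in ventricle. Its log2 values in atrium after shunt were 4.12, 4.66 and 4.10, and in atrium after sham 4.94, 4.79 and 4.97. In ventricle they were 10.65, 10.46 and 10.39 after shunt and 10.47, 10.47 and 10.57 after sham. Every atrial array therefore stood below every ventricular one, with a gap of more than 5 log2 units, while shunt and sham overlapped in ventricle and did not in atrium. On the atrial arrays Rpl3l lay between the 42.2 and the 55.5 percentile of the array's probe sets, and on the ventricular arrays between the 98.4 and the 98.7 percentile.

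Rpl3 ran the other way. Its main probe set read 11.59, 11.60 and 11.55 in atrium after shunt and 11.49, 11.55 and 11.60 in atrium after sham. In ventricle it read 10.19, 10.13 and 10.10 after shunt and 9.98, 10.05 and 10.05 after sham. All 6 atrial arrays were thus higher than all 6 ventricular arrays, and shunt and sham overlapped in atrium but not in ventricle.

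**Figure D1:**
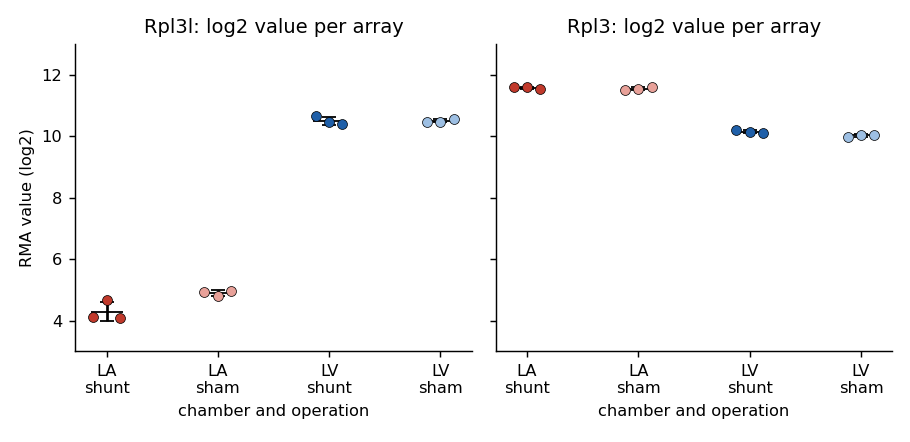
Log2 RMA values of Rpl3l (left panel) and Rpl3 (right panel) on each of the 12 arrays, by chamber (LA, left atrium; LV, left ventricle) and operation, with the mean and SD of 3 arrays. Rpl3l sits between 4.10 and 4.97 in atrium and at or above 10.39 in ventricle, whereas Rpl3 is at or above 11.49 in atrium and at or below 10.19 in ventricle.

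After shunt, Rpl3l averaged 4.29 ± 0.32 in atrium and 10.50 ± 0.13 in ventricle (SD, n = 3 arrays each), a difference of -6.21 (SE 0.13), or 73.8-fold lower (limma adjusted p = 3.59e-11). After sham, the means were 4.90 ± 0.10 in atrium and 10.50 ± 0.06 in ventricle, a difference of -5.61 (SE 0.13), or 48.7-fold lower (limma adjusted p = 6.39e-11). Of all 18625 probe sets, 6 had a larger difference in size after shunt and 9 after sham. RMA compresses differences at low signal, so the fold is a value on the array's scale.

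Rpl3 was 1.44 (SE 0.06) higher in atrium than in ventricle after shunt, a 2.72-fold difference (limma adjusted p = 4.88e-09), and 1.52 (SE 0.06) higher after sham, a 2.87-fold difference (limma adjusted p = 3.00e-09). Its second, dimmer probe set, which can bind related sequences as its identifier marks, gave 0.86 after shunt and 0.85 after sham (limma adjusted p = 0.000218 and 0.000213). Subtracting Rpl3 from Rpl3l within each array gave -7.28 ± 0.30 in atrium after shunt, -6.64 ± 0.11 in atrium after sham, 0.36 ± 0.08 in ventricle after shunt and 0.48 ± 0.05 in ventricle after sham (SD, n = 3 arrays each). The change in this difference between atrium and ventricle was -7.39, with p = 0.005 in a two-sided exact permutation test within operations, the smallest value its 400 arrangements allow. The pair thus changed unequally between chambers, and the values do not give the ratio of the 2 transcripts.

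Some markers of striated muscle were, like Rpl3l, lower in atrium. Among 11 tested general cardiomyocyte genes, 1 was higher and 4 were lower in atrium than in ventricle after sham, and 0 and 5 after shunt. The shares of all probe sets were 25.2% higher and 22.0% lower after sham, and 22.4% and 19.4% after shunt. Of 15 listed skeletal muscle genes 5 passed the filter, of which Atp2a1 (a calcium pump, 0.47) was higher and Acta1 (skeletal actin, -2.67), Myh1 (a fast myosin, -0.56) and Ckm (muscle creatine kinase, -0.31) were lower. After shunt, 1 of these 5 skeletal muscle genes was higher and 3 were lower. The log2 summed level of the skeletal list was 12.9 in each atrial sham array and 13.6 to 13.7 in ventricular sham arrays. Their part in the Rpl3l difference was not tested.

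Most other ribosomal protein genes were slightly higher in atrium. After shunt, 37 of the 48 probe sets were higher in atrium at a limma adjusted p below 0.05 and 1, Rpl3l, was lower, whereas 22.4% of all 18625 probe sets were higher and 19.4% lower. After sham, 36 were higher and Rpl3l was again the one lower, against 25.2% higher and 22.0% lower among all. By gene these counts were 34 higher of 43 after shunt and 32 higher of 43 after sham. The operations share no arrays but share the estimate of the spread, and 34 probe sets were higher in both, that is 91.9% of the shunt calls and 94.4% of the sham calls. Among all probe sets, the shared higher calls were 85.9% of the shunt calls and 76.6% of the sham calls. With only the arrays of the compared groups in the fit, which leaves fewer residual degrees of freedom, 25 members were called after shunt. The calls over all probe sets in that fit were not counted. After sham, at least 32 members were called in every alternative.

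Most of these differences were small. The median difference of the 48 probe sets was 0.25 after shunt (quartiles 0.18 and 0.29) and 0.23 after sham (quartiles 0.17 and 0.31), against -0.00 and 0.00 over all tested probe sets. The large subunit (32 probe sets) had medians of 0.24 after shunt and 0.25 after sham, and the small subunit (16 probe sets) of 0.25 and 0.23. Arrays of the chambers did not overlap for 39 probe sets higher in atrium after shunt (25.4% of all probe sets) and 42 after sham (32.2% of all). They lay apart the other way for Rpl3l alone, 1 probe set in each operation, against 23.9% of all after shunt and 29.0% after sham.

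**Figure D2:**
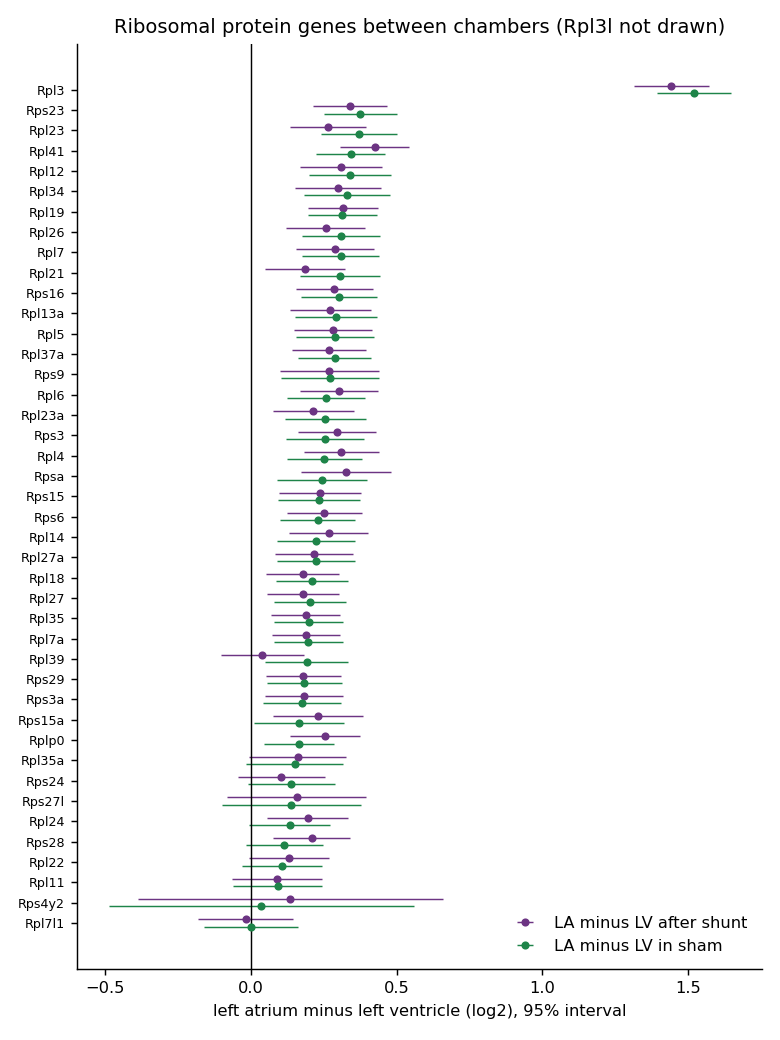
Left atrium minus left ventricle in log2 units for the main probe set of each ribosomal protein gene except Rpl3l, with 95% intervals from limma, after shunt (purple) and after sham (green). Rpl3 stands at 1.44 after shunt and 1.52 after sham, and nearly every other gene lies between 0 and 0.42.

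Among proteins of the large subunit, Rpl41, the smallest ribosomal protein, read 11.54, 11.58 and 11.57 in atrium after shunt, and 11.13, 11.10 and 11.19 in ventricle after shunt. The groups were well apart, and the difference of 0.42 (SE 0.05) was the largest atrial excess after that of Rpl3 among main probe sets in this comparison (limma adjusted p = 5.59e-05). Rpl23, a protein at the face between the subunits, was 0.26 (SE 0.06) higher in atrium after shunt and 0.37 (SE 0.06) after sham. Rpl12, at the base of the stalk that recruits elongation factors, was 0.31 and 0.34 higher. The stalk's central protein, Rplp0, was 0.26 higher after shunt and 0.16 after sham.

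Further large-subunit genes among the largest differences after shunt were Rpl19 (0.32), which contacts the small subunit, Rpl4 (0.31), Rpl6 (0.30), Rpl34 (0.30) and Rpl7 (0.29). After sham they were Rpl41 (0.34), Rpl34 (0.33), Rpl19 (0.31), Rpl26 (0.31), Rpl7 (0.31), Rpl21 (0.31) and Rpl13a (0.29). A second Rpl7 probe set with values between 3.85 and 4.88 gave 0.04 after shunt and 0.49 after sham, with overlapping arrays in both. Rpl4 lines the tunnel through which the new peptide leaves the ribosome. Rpl5 was 0.28 higher in atrium after shunt and 0.29 after sham, while Rpl11, its partner on the small ribosomal RNA of the large subunit, differed by 0.09 in both and did not pass the test (limma adjusted p = 0.322 and 0.299).

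In the small subunit, Rps23, which sits where codons are read, gave 11.74, 11.79 and 11.82 in atrium after shunt and 11.46, 11.38 and 11.50 in ventricle after shunt. Its sham arrays gave 11.79, 11.81 and 11.82 in atrium and 11.42, 11.40 and 11.46 in ventricle. Atrial arrays were above ventricular arrays in both operations, by 0.34 (SE 0.06) after shunt and 0.38 (SE 0.06) after sham (limma adjusted p = 0.000543 and 0.000239).

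Rps16 was 0.29 higher in atrium after shunt and 0.30 higher after sham, Rps3, at the entry of the messenger RNA channel, was 0.30 and 0.25 higher, and Rps6, the target of S6 kinases, was 0.25 and 0.23 higher. Rpsa, a small-subunit protein also known as a laminin receptor precursor, was called on each of its 3 probe sets, at 0.33, 0.60 and 0.28 after shunt and 0.24, 0.50 and 0.24 after sham. The probe set of 0.60 and 0.50 is one that can bind several transcripts, as its identifier marks. Rps29, the brightest member with a mean of 12.86, was 0.18 higher in both.

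Genes with a paralogue, like the members in general, did not all pass the test. Of all 43 member genes, 34 were higher in atrium after shunt and 32 after sham. Among all probe sets 22.4% were higher and 19.4% lower after shunt, and 25.2% and 22.0% after sham. Of 11 tested genes on this list, Rpl3l included, 5 were higher and 1 lower in atrium after shunt and 6 higher and 1 lower after sham, Rpl23a (0.22 and 0.26) among the higher ones. Rpl22, which has a relative that replaces it in some tissues, was 0.13 and 0.11 higher in atrium after shunt and sham and did not pass the test (limma adjusted p = 0.111 and 0.172). Rps27l, a relative of Rps27, was 0.16 and 0.14 higher and did not pass (limma adjusted p = 0.27 and 0.314), with overlapping arrays. Rpl7l1, a relative of Rpl7 with a role in ribosome assembly, differed by -0.02 and 0.00 on its main probe set, and Rps4y2 by 0.14 and 0.04 (limma adjusted p from 0.677 to 0.984). Rpl39, a small protein of the exit tunnel and the dimmest gene with a main probe set past the filter, differed by 0.04 after shunt (not passing) and 0.19 after sham (limma adjusted p = 0.029).

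Cell markers also differed between chambers. Fibroblast genes were higher in atrium for 10 of 12 after shunt and 9 of 12 after sham, with a log2 summed level of 13.97 to 14.29 in atrium and 13.44 to 13.70 in ventricle after shunt, and of 14.12 to 14.15 in atrium and 13.47 to 13.55 in ventricle after sham. Of 6 mesothelial genes, 5 were higher in atrium and 1 lower in both operations, and their log2 summed level was 8.61 to 9.15 in atrium and 7.30 to 7.42 in ventricle after shunt. Endothelial genes ran the other way, with 6 of 11 lower after sham and 1 higher. Beside these counts, 22.4% of all probe sets were higher and 19.4% lower after shunt, and 25.2% and 22.0% after sham. The part of these cells in the ribosomal protein difference was not tested.

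Other steps of translation were set beside the ribosomal proteins from lists of known pathway genes. Among all tested probe sets, 22.4% were higher and 19.4% lower in atrium after shunt, and 25.2% and 22.0% after sham. Of 15 tested elongation and ribosome-associated genes, 9 were higher and 1 lower in atrium after shunt, and 8 higher and 1 lower after sham (medians 0.27 and 0.25). Eef1a1, which brings aminoacyl-tRNA to the ribosome, was 0.84 and 0.97 higher in atrium, and Eef1a2, its form in adult muscle and neurons, was lower, with differences of -0.36 and -0.37. Eif5a2, a factor that helps stalled peptide bonds, was 0.93 and 0.83 higher, Eef1e1 was 0.44 and 0.58 higher, and Eef2, which moves the ribosome along, was 0.39 and 0.33 higher, all past the test.

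Initiation and assembly genes were called in both directions, as were probe sets in general. Among 36 initiation genes, 5 were higher and 6 lower in atrium after shunt and 7 higher and 5 lower after sham. The shares of all probe sets were 22.4% higher and 19.4% lower after shunt, and 25.2% and 22.0% after sham. The cap-binding Eif4e differed by -0.65 after shunt and -0.59 after sham, and Eif4ebp1, which holds Eif4e back, by 0.41 and 0.54. Eif2b4, a subunit of the exchange factor of initiation, differed by -0.62 and -0.52, and Eif3h, a subunit of the scaffold factor, by 0.41 and 0.47.

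Of 73 ribosome biogenesis genes, 8 were higher and 8 lower after shunt and 10 higher and 12 lower after sham. Utp15, which acts in the processing of ribosomal RNA, differed by 0.51 after shunt and 0.71 after sham, and nucleolin (Ncl) by 0.39 and 0.48. Of 30 growth-signalling genes, 6 were higher and 6 lower after shunt and 5 higher and 5 lower after sham. For both lists the shares of all probe sets are those given above. Rps6ka2, a kinase of the RSK family, differed by 1.06 and 1.19, Mycn, a growth transcription factor, by -0.79 and -0.57, and Pdcd4, an inhibitor of initiation, by 0.51 and 0.45.

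**Figure D3:**
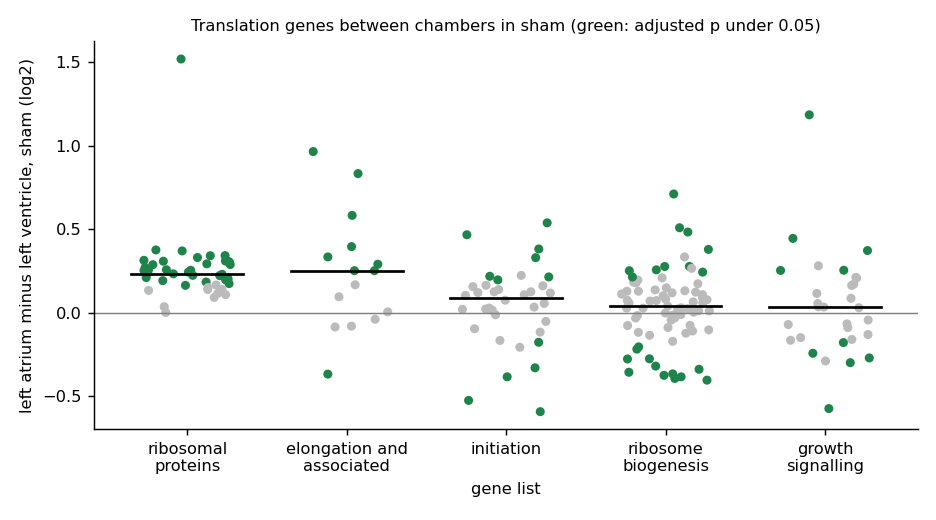
Left atrium minus left ventricle after sham, in log2 units, for each tested gene of 5 lists (1 point per gene, the line marks the list's median, green points have a limma adjusted p below 0.05; Rpl3l, at -5.61, is not drawn). The ribosomal protein genes form a narrow band above 0, with Rpl3 at 1.52, and the initiation, biogenesis and growth-signalling genes spread to both sides of 0.

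No ribosomal protein gene passed the test with shunt. In atrium 0 of 48 probe sets passed a limma adjusted p of 0.05, against 1.30% of all probe sets (243 of 18625), and 3 had an unadjusted p below 0.05, against 15.2% of all. In ventricle 0 of 48 passed, against 0.107% of all (20 of 18625), and 5 had an unadjusted p below 0.05, against 14.7% of all. The difference in shunt effect between chambers was called for 0 members and for 0% of all probe sets, with 1 member at an unadjusted p below 0.05. The adjusted threshold was harder to reach for shunt than between chambers. Rpl21 differed by 0.21 with shunt in ventricle (limma adjusted p = 0.179) and by 0.19 between chambers after shunt (limma adjusted p = 0.0307). The counts of 0 therefore do not show that small changes were absent.

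Rpl3l came closest in atrium, on dim values not far above the filter level of 4.01. Its values, given above, were lower on all 3 shunt arrays than on all 3 sham arrays, by -0.60 (SE 0.13, 95% interval -0.89 to -0.32), which missed the threshold narrowly (limma adjusted p = 0.0505). In ventricle the difference was -0.00 (SE 0.13, 95% interval -0.29 to 0.28; limma adjusted p = 0.99). The test of the difference between the chambers gave -0.60 (SE 0.19; limma adjusted p = 0.529), and by p the next genes in that test, at their main probe sets, were Rpl39 (-0.15), Rpl21 (-0.12), Rpl23 (-0.11) and Rplp0 (0.09), with limma adjusted p from 0.855 to 0.929. The dim second Rpl7 probe set gave -0.46 there (limma adjusted p = 0.796). Without the second atrial shunt array, which read 4.66, the atrial difference was -0.79 (limma adjusted p = 0.00968), and over the alternatives tried the adjusted p ranged from 0.00968 to 0.187.

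The within-array difference of Rpl3l and Rpl3 changed by -0.64 with shunt in atrium and by -0.12 in ventricle, with two-sided exact permutation p of 0.1 and 0.2, where 3 arrays against 3 cannot go below 0.1. Rpl3 itself differed by 0.04 in atrium and 0.11 in ventricle (limma adjusted p = 0.827 and 0.396). In the same atrial comparison 1.30% of all probe sets passed in either direction. Of the 6 ventricular marker genes 3 rose, Myh7 (slow myosin) by 1.63, Kcnip2 (a potassium channel subunit) by 1.33 and Myl3 (a ventricular light chain) by 1.13 (limma adjusted p from 0.00228 to 0.0256). Of the 5 tested skeletal muscle genes 2 rose, Acta1 by 1.29 and Myh1 by 0.53 (limma adjusted p = 0.00536 and 0.00286), and the other 3 had negative differences that did not pass, so that the list's median was -0.03. By sign alone, 5 of the 6 ventricular marker genes and 2 of the 5 skeletal muscle genes had a positive difference, as did 46.1% of all probe sets. Rpl3l had a negative one, which did not pass. A relation of Rpl3l to these genes was not tested.

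**Figure D4:**
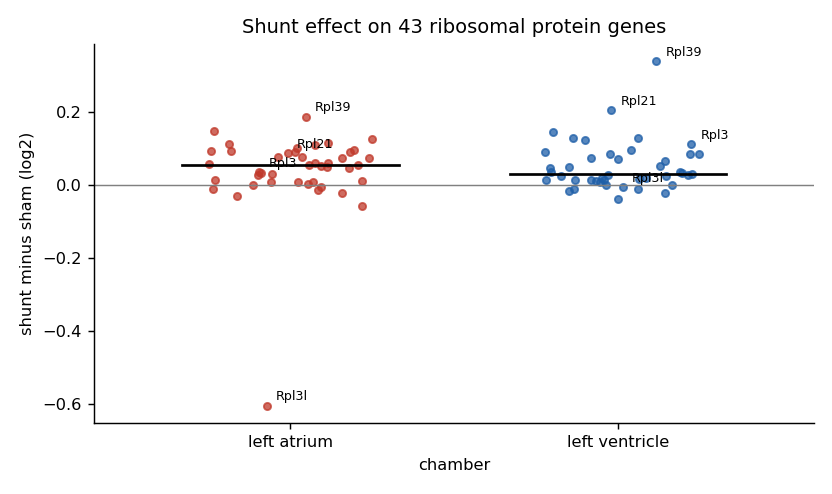
Shunt minus sham in log2 units for the main probe set of 43 ribosomal protein genes in left atrium and left ventricle (1 point per gene, the line marks the median). In atrium Rpl3l lies at -0.60 and Rpl39 at 0.19, in ventricle Rpl39 lies at 0.34 and Rpl21 at 0.21, and the medians are 0.05 and 0.03.

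Rpl39 had the smallest p of the members in ventricle, on a dim probe set with a mean of 4.82, not far above the filter level of 4.01. It read 5.0, 4.86 and 4.93 after shunt and 4.50, 4.59 and 4.67 after sham, so the groups were apart, with a difference of 0.34 (SE 0.07; limma adjusted p = 0.0703). In atrium it read 4.97, 4.95 and 4.98 after shunt and 4.81, 4.72 and 4.81 after sham, a difference of 0.19 (limma adjusted p = 0.189). Rpl21, a large-subunit protein, followed in ventricle with 10.52, 10.42 and 10.52 after shunt and 10.22, 10.25 and 10.37 after sham, a difference of 0.21 (limma adjusted p = 0.179). Shunt and sham arrays did not overlap for it, and neither gene passed the test. Rpl39 passed with array weights (limma adjusted p = 0.0353) and with a hexokinase control of RNA quality as a covariate (limma adjusted p = 0.0466).

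At main probe sets, the next genes by p were Rpl13a (0.15), Rpl26 (0.13) and Rpl35 (0.12) in ventricle and Rps15a (0.15), Rplp0 (0.12) and Rpl35 (0.11) in atrium, with limma adjusted p from 0.321 to 0.36. Among second probe sets, the dim one of Rpl7 differed by 0.51 (SE 0.17) in ventricle (limma adjusted p = 0.208), the largest member difference there, and one of Rpsa by 0.16 in atrium (limma adjusted p = 0.238). The median difference with shunt was 0.06 in atrium and 0.03 in ventricle, against -0.01 and -0.01 over all probe sets. In ventricle it was 0.0751 without the second shunt array, 0.0199 without the third, 0.0208 without the second sham array and 0.0516 without the third. In each chamber 40 of the 48 members had a positive difference, where 46.1% of all probe sets did in atrium and 48.0% in ventricle. Shunt arrays lay wholly above sham arrays for 18 members in atrium (8.33% of all probe sets) and for 9 in ventricle (10.1% of all), and wholly below for 2 in atrium (12.4% of all) and 1 in ventricle (10.7% of all).

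These small shifts varied from array to array. Relative to the mean of sham arrays of the same chamber, the median member stood at 0.04, 0.05 and 0.09 on the atrial shunt arrays and at 0.07, -0.02 and 0.08 on the ventricular shunt arrays. The array's hexokinase controls target both ends of that transcript, and the excess of the 3′ over the 5′ probe set grows with RNA degradation or short cDNA. That excess was 0.80, 0.94 and 1.44 on the same atrial shunt arrays, against 1.01, 1.10 and 1.06 after sham. In ventricle it was 1.23, 0.82 and 1.18 after shunt, against 0.84, 1.02 and 0.90 after sham. The shunt array with the lowest member median in each chamber also had the lowest hexokinase excess of its group. On the atrial sham arrays the medians were -0.0126, 0.0089 and 0.0029, in the same order as the excess. Among ventricular sham arrays, in contrast, the highest excess (1.02) went with the lowest median (-0.02). The matching excess of the Gapdh controls was 0.39, 0.39 and 0.36 on the ventricular shunt arrays and that of the actin controls 1.17, 1.08 and 1.02. Both were lowest on the third array, which had the highest member median there. On the atrial shunt arrays the Gapdh excess was 0.33, 0.30 and 0.43 and the actin excess 1.15, 1.20 and 1.34. Both were highest on the third array, which had the highest member median in that group. With the hexokinase excess as a covariate the medians were 0.05 in atrium and 0.02 in ventricle. Without the 3 shunt arrays of highest excess, of which 2 were ventricular, the ventricular median was -0.02. The cause of the shift was not tested.

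**Figure D5:**
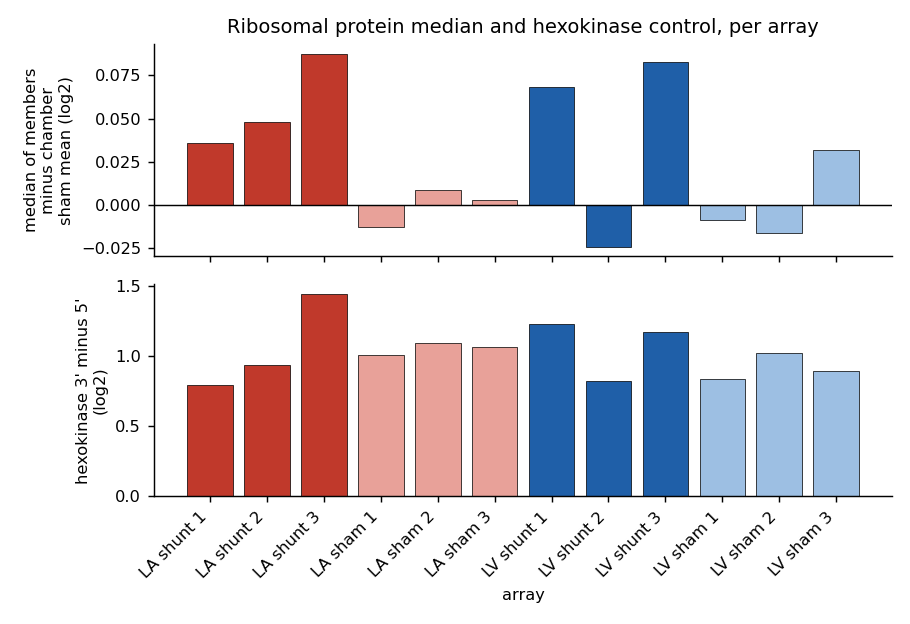
Upper panel, the median over the 48 tested probe sets of each array's deviation from the sham mean of its chamber, in log2 units. Lower panel, the excess of the 3′ over the 5′ hexokinase probe set on the same arrays, in log2 units; the second ventricular shunt array, at -0.02 above, is at 0.82 below, while the third atrial shunt array is highest in both panels.

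The translation lists showed no called gene with shunt either. Of the initiation, elongation, biogenesis and growth-signalling genes, 0 passed limma's test in atrium, in ventricle or for the difference between them. Few probe sets passed at all: 1.30% in atrium, 0.107% in ventricle and 0% for the difference. Mycn differed by 0.52 in ventricle (limma adjusted p = 0.0922) and by 0.30 in atrium, and Eef1a1 by 0.24 and 0.12, all short of the threshold.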

How the data were processed

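Each array was hybridised with biotin-labelled cRNA, for which 10 µg of total RNA were used, per the labels' protocols. The log2 values were deposited after RMA (background correction, normalization across arrays and summary of the probes of a set), per the submitters' processing notes, which name only RMA; the arrays normalized together are not given in the sources used here. Groups and pools came from the labels. From the deposited log2 values, limma 3.58.1 in R 4.3.3 fitted 1 mean per group over all 12 arrays (8 residual degrees of freedom) to the 18625 probe sets with a mean of at least 4.01, and p-values were adjusted (Benjamini-Hochberg) over all of them, with calls below 0.05. The code was tested on simulated data, where 8% of added changes of 0.25 log2 units and 60% of those of 0.5 were recovered. Symbols came from the platform annotation (20826 probe sets with 1 symbol, 436 with several, 9780 without). A gene's main probe set was the passing one of highest mean. Named genes were Rpl3, Rpl3l, paralogues, up to 12 called members per contrast and direction by size, filled to 5 by p where fewer than 5 passed, and the brightest and dimmest, with up to 4 genes per contrast from each translation list; Rpl5, Rpl11, Rps6, Eef1a2 and the muscle marker genes were chosen after their values were seen. The members and lists were chosen with earlier results of these data known. Replicate numbers were not used in the fit: deviations of same-numbered arrays correlated at -0.10 to 0.01 between operations, at 0.23, 0.26 and 0.07 between chambers after sham and at -0.24, 0.44 and 0.44 after shunt, so not every pair was above 0.1. Between chambers, arrays of different number correlated at -0.23 to 0.03 after sham and at -0.62 to 0.45 after shunt. These values do not settle whether the pools were paired. Arrays give no counting interval; their number limits the precision. Promoters are from RefSeq (GRCr8).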

Additional observations from a re-analysis of the deposited data

How the results depend on the processing

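Alternatives were other filters, normalizations, array weights, priors, probe set summaries, a hexokinase covariate, a replicate block and each array left out. The chamber calls held their direction in every one: of the 38 members called after shunt 25 were called in every fit, and of the 37 after sham 30 were, with no change of sign. Leaving out an array gave 30 to 38 calls after shunt and 32 to 38 after sham. With only the groups compared in the fit, 25 members were called after shunt, with fewer residual degrees of freedom. Calls over all probe sets were not counted there, and after sham at least 32 members were called in every alternative. For the shunt in atrium 1 member, Rpl3l, was called at a 60th percentile filter (which its mean passes only through the ventricular values), with a trended and robust prior, with 1 probe set per gene, with the probe sets of each gene averaged and with the hexokinase covariate, and leaving out an array gave 0 to 1. In ventricle 1 member, Rpl39, was called with array weights and with the hexokinase covariate (limma adjusted p = 0.0353 and 0.0466). The Rpl3l difference with shunt in ventricle, -0.00, was 0.01 after further quantile normalization (0.00777), 0.00389 after cyclic loess and 0.0238 with the hexokinase covariate, and lay between -0.0778 and 0.0510 with an array left out. Without the 3 shunt arrays of highest hexokinase difference, which leaves 1 ventricular shunt array assumed to vary like the others, the member median was -0.0239 for shunt in ventricle, 0.319 between chambers after shunt and 0.0466 for the difference in shunt effect; the cause was not tested. With the replicate block, 38 members were called after shunt and 37 after sham over all groups, 36 and 35 within operations, and 0 for the shunt contrasts. Under RMA as deposited, further quantile normalization and cyclic loess, the median of all tested probe sets differed between groups by at most 0.0374. Rpl3l had no value where only probe sets with unsuffixed identifiers were kept. The member median for shunt in ventricle lay between 0.0199 and 0.0751 with an array left out, and in atrium between 0.0443 and 0.0733. Low atrial signal limits the size of the Rpl3l fold.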
